A study of Mus musculus with 4 samples.

Results

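The carboxylesterases of mouse liver were followed in RNA from livers that lacked Cnot3 and from Control livers. The family was taken as the genes Ces1b, Ces1c, Ces1d, Ces1e, Ces1f, Ces1g, Ces2a, Ces2c, Ces3a and Ces3b, and its values were those of every probe set, a group of array probes read as 1 value, that names 1 of these symbols alone. By this rule 8 of the 45037 probe sets on the array belonged to 6 of the 10 genes: 3 probe sets to Ces1d and 1 each to Ces1c, Ces1e, Ces1f, Ces1g and Ces2a. The other 4 members had no probe set of their own. Ces1b and Ces2c were named by none in the annotation used here, and Ces3a and Ces3b were named together by 1 probe set, which is given apart from the counts.

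The 4 arrays held liver RNA from 2 Cnot3KO mice and 2 Control mice, all C57BL/6 and 4 weeks old, with 1 array per liver. Cnot3, a subunit of the CCR4-NOT complex that shortens the poly(A) tails of mRNAs, was deleted in the Cnot3KO mice with a floxed allele and Cre driven by the Albumin promoter, so the deletion is aimed at hepatocytes and the hepatoblasts before them, and other liver cells keep the gene. The labels call the Control mice wild type, while the study's methods allow floxed mice without Cre and mice with Cre but fewer than a full set of floxed alleles as controls, and which of these each Control array held is not given in the sources used here. The comparison asks which transcripts of the family differ in level between Cnot3KO and Control livers at 4 weeks. Whether a difference follows directly from the loss of Cnot3 was not tested. The labels number the mice within a group but say nothing of litter or day, so p-values measure only the spread between these arrays.

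Carboxylesterases are serine hydrolases, most of them kept in the endoplasmic reticulum, that split ester, amide and thioester bonds. In liver they clear drugs and other foreign esters and they also hydrolyse stored triacylglycerol and cholesteryl esters, some of it on the way to very low density lipoprotein (VLDL). Mice carry many more of these genes than humans do, in a tandem array in which single genes have taken on separate roles.

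The promoters of 4 measured members are shown because they carry what the classes share and the expression values below do not use. Each is the stretch of 300 bases from RefSeq (GRCm38.p6), 250 before and 50 after the annotated start on chromosome 8, written 5′ to 3′ on the gene's own strand: Ces1c at chr8:93131234-93131533 (minus strand), Ces1e at chr8:93229570-93229869 (minus), Ces1g at chr8:93337160-93337459 (minus) and Ces2a at chr8:104733753-104734052 (plus). Capitals mark TTATGTAA, the D-box read by the PAR bZIP factors Dbp, Tef and Hlf, and ACTTTGCCC, the reverse complement of the Hnf4a core GGGCAAAGT.
Ces1c: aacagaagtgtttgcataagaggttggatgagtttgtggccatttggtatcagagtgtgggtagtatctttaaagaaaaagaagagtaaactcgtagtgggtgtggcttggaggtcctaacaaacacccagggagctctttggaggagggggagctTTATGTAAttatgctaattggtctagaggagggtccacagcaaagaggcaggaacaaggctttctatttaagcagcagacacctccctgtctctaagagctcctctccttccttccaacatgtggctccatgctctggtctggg
Ces1e: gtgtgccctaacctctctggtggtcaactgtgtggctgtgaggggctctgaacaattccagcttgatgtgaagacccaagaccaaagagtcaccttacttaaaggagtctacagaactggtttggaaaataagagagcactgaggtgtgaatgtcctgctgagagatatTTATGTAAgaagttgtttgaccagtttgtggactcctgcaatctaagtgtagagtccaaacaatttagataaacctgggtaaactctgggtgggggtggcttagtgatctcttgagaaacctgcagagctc
Ces1g: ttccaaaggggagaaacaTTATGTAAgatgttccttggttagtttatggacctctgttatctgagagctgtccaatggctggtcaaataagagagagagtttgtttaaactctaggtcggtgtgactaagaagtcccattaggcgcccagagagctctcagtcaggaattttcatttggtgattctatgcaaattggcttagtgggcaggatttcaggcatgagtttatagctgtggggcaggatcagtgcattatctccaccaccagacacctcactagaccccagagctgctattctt
Ces2a: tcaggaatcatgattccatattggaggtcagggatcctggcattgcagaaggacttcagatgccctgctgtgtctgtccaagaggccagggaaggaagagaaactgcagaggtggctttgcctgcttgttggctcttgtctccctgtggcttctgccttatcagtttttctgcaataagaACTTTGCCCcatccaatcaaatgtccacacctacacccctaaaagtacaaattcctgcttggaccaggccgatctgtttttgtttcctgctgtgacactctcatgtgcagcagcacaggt
These letters were chosen after the sequences had been read, so the counts that follow are descriptions. The D-box letters, searched on both strands, stood in 0.938% of 32851 RefSeq mouse promoters of the same length, and in the promoters of 5 of the 6 Ces1 genes with a listed window (Ces1a, Ces1b, Ces1c, Ces1e and Ces1g, the exception being Ces1h) but of 0 of 6 Ces2 genes. The Hnf4a letters stood in 0.262% of all promoters, in those of 4 of 6 Ces2 genes (Ces2a, Ces2e, Ces2f and Ces2g) and in no Ces1 promoter. No match of one motif overlapped a match of the other. Part of the sharing is shared sequence: the Ces1b and Ces1c windows were 85.7% identical, and a local alignment of 148 columns, 62.8% identical, ran through both D-boxes from 90 bases before the Ces1e start and 240 bases before the Ces1g start. In that alignment the D-box stood 81 bases before the Ces1e start and 232 before the Ces1g start. The D-box of Ces1c stood 94 bases before its start and was aligned with neither. The local alignment of Ces1c with Ces1e, of 117 columns, ran from 247 bases before the Ces1c start and ended before the Ces1c D-box. The one with Ces1g began 227 bases before the Ces1g start, inside the Ces1g D-box. Among the measured members with a window, the D-box letters were found in 2 that fell in Cnot3KO livers, Ces1c and Ces1e, and in 1 that was not called, Ces1g. No window was listed for Ces1d, Ces1f and Ces3a, so Ces1d and Ces1f, which also fell, are outside this tally.

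**Figure D1:**
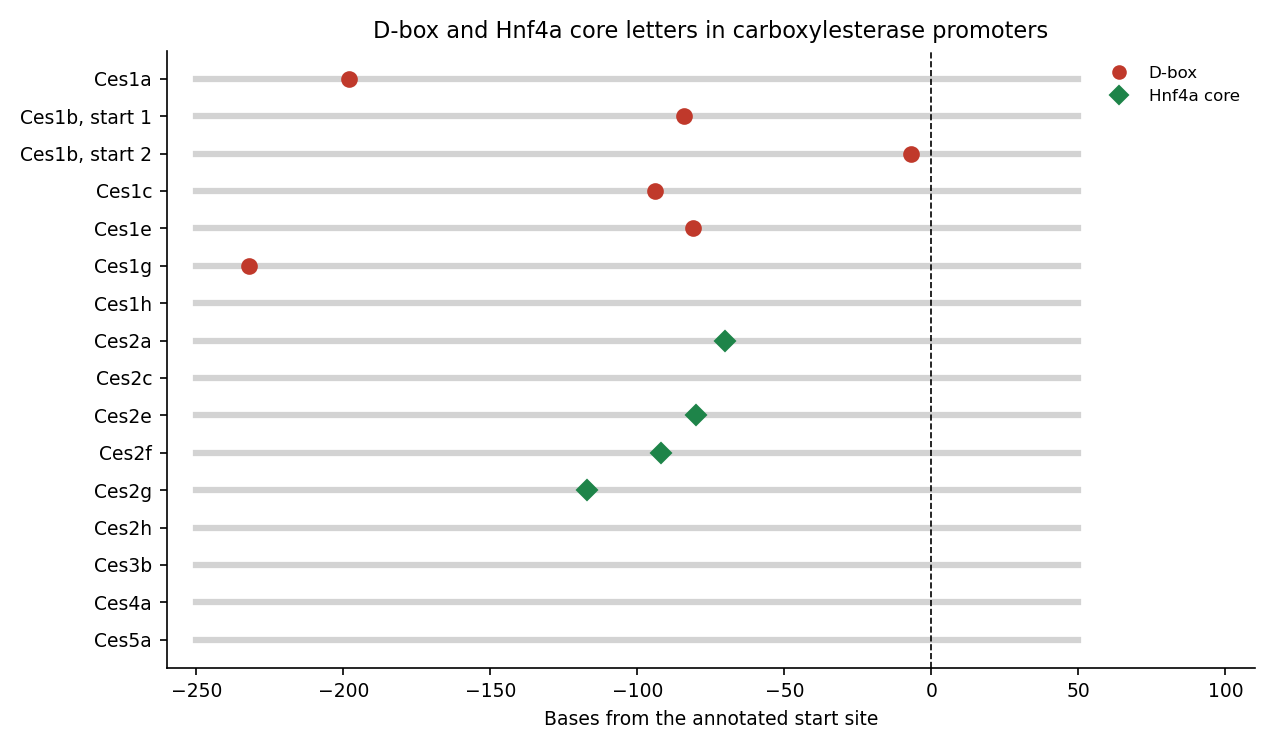
Position of the D-box letters (red circles) and the Hnf4a core letters (green diamonds) in bases from the annotated start site (dashed line) for each carboxylesterase promoter window (grey bars, 250 bases before to 50 after). The D-box letters lie in 5 of 6 Ces1 genes and the Hnf4a letters in 4 of 6 Ces2 genes.

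Of the 6 members with values, 5 were Ces1 genes. In Cnot3KO livers 4 of the 6 were lower than in Control livers, and all 4 were Ces1 genes. Ces1f was lower by 31.1-fold, Ces1e by 13.9-fold, Ces1d by 7.88-fold and Ces1c by 1.87-fold. The joint Ces3a and Ces3b probe set, given apart from these counts, was lower as well (log2 difference -3.70). Ces1g and Ces2a did not pass the test, and 0 members were higher by limma (0 also at an unadjusted p under 0.05 and by the methods' t-test). Over all genes the share called lower was 4.64% of 16758 and the share called higher was 12.2%. Counted by probe set, 6 of 8 were lower and 0 higher, where 4.78% of 38405 probe sets were called lower. The median log2 difference of the 6 genes, Cnot3KO minus Control, was -1.94, against 0.00 over all genes tested. The members were chosen with earlier results of these data known, so these comparisons with all genes are descriptions. A call is an adjusted p under 0.05 in limma with Benjamini-Hochberg adjustment over all probe sets kept, and a gene is represented by its brightest probe set. With probe sets of the _x_at and _s_at kinds dropped, and Ces1f with them, the median was -0.90. With either Control array left out, fewer member genes and probe sets were called lower, the fewest without Control replicate 1. Fewer probe sets were then called lower over the whole array as well. In these fits the lone Control array is assumed to vary like the Cnot3KO pair, which supplies the residual spread. The median difference was -1.86 without Control replicate 1 and -2.07 without Control replicate 2.

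The largest fall was that of Ces1f, also known as triacylglycerol hydrolase 2, an esterase of the endoplasmic reticulum of hepatocytes. Its log2 intensity was 4.73 and 6.67 in Cnot3KO livers, against 10.66 and 10.66 in Control livers. The groups were far apart, and the Cnot3KO arrays differed from each other much more than the Control arrays did. The difference was -4.96 ± 0.61 (SE, n = 2 each, limma adjusted p = 0.0111), which placed Ces1f 10th from the lowest of 16758 genes. The adjusted p was 0.0643 without Control replicate 1 and 0.0518 without Control replicate 2, with the difference at -4.95 and -4.96. The only probe set of Ces1f is of the kind (ending _s_at) whose probes can match transcripts of more than 1 gene, so signal from close relatives in it is uncertain.

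Ces1e, or egasyn, is the esterase that holds a part of the cell's β-glucuronidase in the endoplasmic reticulum. It read 4.29 and 5.51 in Cnot3KO livers, against 8.61 and 8.78 in Control livers, with no overlap between the groups. The difference was -3.79 ± 0.40 (limma adjusted p = 0.00861), 23rd from the lowest. Gusb, which encodes β-glucuronidase itself, read 7.51 and 7.42 in Cnot3KO livers, against 6.86 and 6.82 in Control livers, and its difference of 0.62 ± 0.16 did not pass (limma adjusted p = 0.0614). Without Control replicate 1, where the Cnot3KO pair alone supplies the residual spread, the difference of Ces1e was -3.88 with an adjusted p of 0.0510.

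Ces1d, known as triacylglycerol hydrolase, mobilises stored triacylglycerol of hepatocytes for VLDL assembly. Its brightest probe set read 7.01 and 7.90 in Cnot3KO livers, against 10.46 and 10.40 in Control livers, a difference of -2.98 ± 0.31 (limma adjusted p = 0.00839). A second, of the kind for transcripts of 1 gene (ending _a_at), read 6.50 and 7.30 in Cnot3KO livers, against 10.19 and 9.90 in Control livers, a difference of -3.14 ± 0.30 (limma adjusted p = 0.00716). The third, of a kind that may also bind unrelated transcripts (ending _x_at), read 5.16 and 5.88 in Cnot3KO livers, against 8.51 and 8.13 in Control livers, a difference of -2.80 ± 0.29 (limma adjusted p = 0.00815). All 3 gave falls of similar size with no overlap, from -3.14 to -2.80. This makes Ces1d the member with the most probe sets behind its value. Without Control replicate 1, and with the residual spread from the Cnot3KO pair alone, the first of them had a difference of -2.95 and missed the threshold (adjusted p = 0.0513). The other 2 stayed past it with each array left out in turn.

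Ces1c, the esterase that mouse liver secretes into plasma, changed least of the members called. It read 11.31 and 11.49 in Cnot3KO livers, against 12.45 and 12.17 in Control livers, and the difference was -0.90 ± 0.19 (limma adjusted p = 0.036). Both Cnot3KO arrays lay below both Control arrays. The call was lost without each array in turn (adjusted p 0.0559 to 0.182) and with levels centred on the ribosomal protein gene Rplp0 (0.0666), while the difference stayed between -1.04 and -0.77.

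Ces1g, which acts on hepatic lipids and is also called esterase-x, read 9.26 and 8.27 in Cnot3KO livers, against 9.43 and 9.02 in Control livers. The first Cnot3KO array lay among the Control arrays and the second below them, so the groups overlapped. The difference of -0.46 ± 0.36 did not pass (limma adjusted p = 0.429) and was 0.031 without Cnot3KO replicate 2.

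Ces2a, a hydrolase of the second class and a member outside the Ces1 run, read 9.18 and 9.44 in Cnot3KO livers, against 10.44 and 9.86 in Control livers. The groups did not overlap, but the Control arrays were themselves 0.58 apart, and the difference of -0.84 ± 0.25 did not pass (limma adjusted p = 0.0861). The study's own quantitative PCR, on more livers than were put on the arrays, reported Ces2a mRNA as significantly lower in livers without Cnot3. In all, 7 of the 8 member probe sets had both Cnot3KO arrays below both Control arrays, the exception being that of Ces1g. Among all probe sets kept, 35.9% were ordered in that way.

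The probe set that names Ces3a and Ces3b together (ending _s_at) cannot be given to either gene. Ces3a and Ces3b encode abundant esterases of the liver's endoplasmic reticulum. It read 7.91 and 8.76 in Cnot3KO livers, against 11.97 and 12.09 in Control livers, and the groups were far apart. The difference was -3.70 ± 0.30 (limma adjusted p = 0.00549), and it stayed past the threshold without each array in turn.

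**Figure D2:**
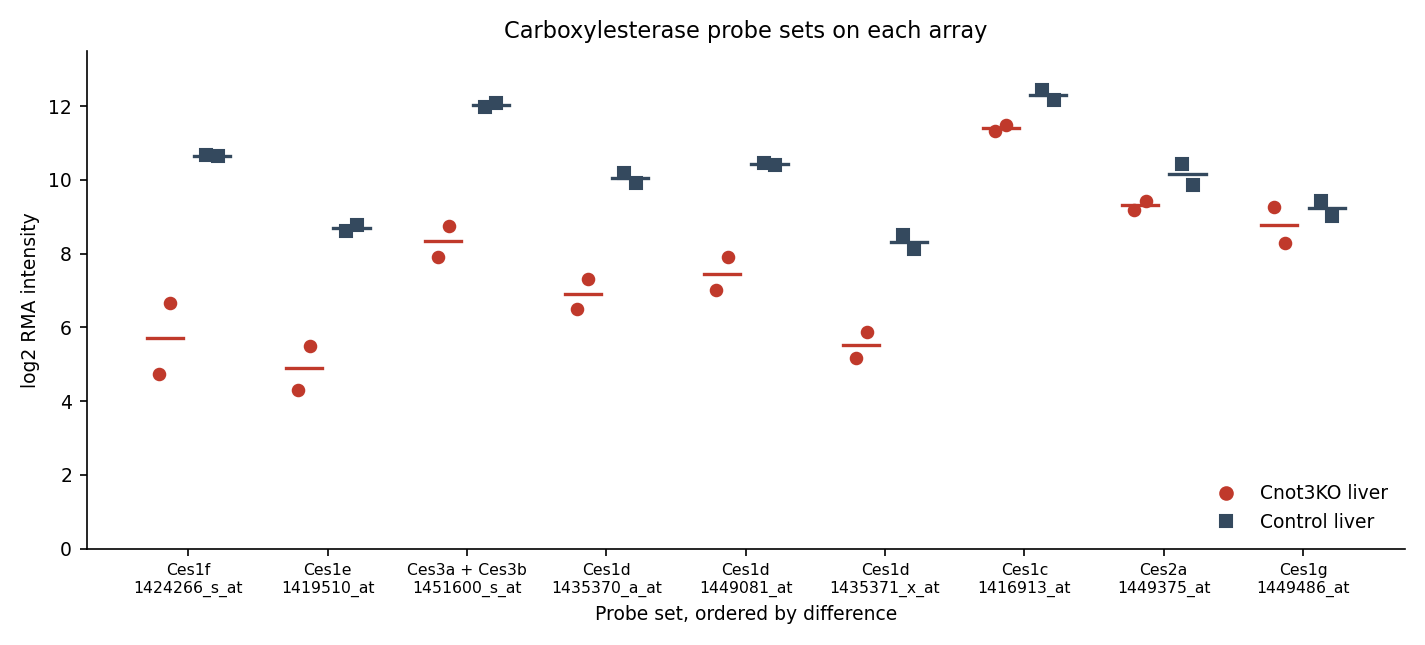
Log2 intensity after RMA (the authors' array normalisation) on each array for the 8 member probe sets and the joint Ces3a and Ces3b probe set, ordered by difference; red circles are the 2 Cnot3KO livers, dark squares the 2 Control livers and short lines the group means. The groups are apart for every probe set except that of Ces1g, and the Cnot3KO circles of Ces1f spread from 4.73 to 6.67.

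Among the members called, those that fell most also differed most between the Cnot3KO arrays. In all 6 member probe sets called lower, 3 of them of Ces1d, Cnot3KO replicate 1 read below Cnot3KO replicate 2, by 0.18 for Ces1c and by up to 1.94 for Ces1f. In these probe sets the Control arrays were 0.01 to 0.37 apart and not in 1 order. The joint Ces3 probe set showed the same order, and Ces1g the opposite one. Among the 1837 probe sets called lower, 58.8% had replicate 1 below replicate 2, and among all probe sets kept the share was 49.6%. Among the 777 genes called lower it was 59.6%, with a median difference of -0.08. Set against Ces1c on the same array, in log2 units and with the mean ratio of the Control arrays as 0, Ces1f was lower by -4.93 and -3.17 on the Cnot3KO arrays, Ces1e by -3.41 and -2.37, and Ces1d by -2.43 and -1.72. The joint Ces3 probe set was lower than Ces1c by -3.13 and -2.46 on this scale, while Ces2a stood at 0.027 and 0.10. Both Cnot3KO arrays therefore gave the same order of falls, Ces1f before Ces1e before Ces1d before Ces1c. No test of whether the falls of the members differ from each other is given. An exact permutation test of such a ratio, 2-sided with 2 livers a group, cannot go below a p of 0.333.

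The genes lie in 2 blocks on chromosome 8 of the reference, with no other protein-coding gene between neighbours in a block. The first block runs from Ces1a to Ces1h in the order of their names and ends with Ces5a. In it the 3 large falls belonged to the adjacent genes Ces1d, Ces1e and Ces1f. Their estimates grew along that run (-2.98 ± 0.31, -3.79 ± 0.40 and -4.96 ± 0.61) but were not tested against each other. The measured neighbours of these 3 genes were Ces1c on one side (-0.90) and Ces1g on the other (-0.46). The second block runs from Ces2a to Ces4a and holds the Ces3a and Ces3b pair.

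Of the carboxylesterases outside the rule, 6 were tested and 0 were called by limma, though 3 were lower at an unadjusted p under 0.05 (0 by the methods' t-test). Ces4a, which read 3.26 and 3.30 in Cnot3KO livers, against 4.10 and 5.49 in Control livers, differed by -1.52 ± 0.45 (limma adjusted p = 0.0873) and passed with levels centred on Rplp0 (0.0172) or without Control replicate 1 (-2.21, 0.0350). Ces1h differed by -0.63 ± 0.19 and Ces2g by -0.58 ± 0.22 (limma adjusted p = 0.0939 and 0.146). Ces5a differed by -0.12 in its brightest probe set and by -0.41 in a second one, where both Cnot3KO arrays lay below both Control arrays, and neither passed (limma adjusted p = 0.654 and 0.234). Ces2b and Ces2e each differed by 0.18 and did not pass. With 1 array left out Ces2b lay between -0.18 and 0.54, and it took the other sign (-0.025) when the arrays were quantile normalised again. Ces2f was below the filter on all arrays.

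**Figure D3:**
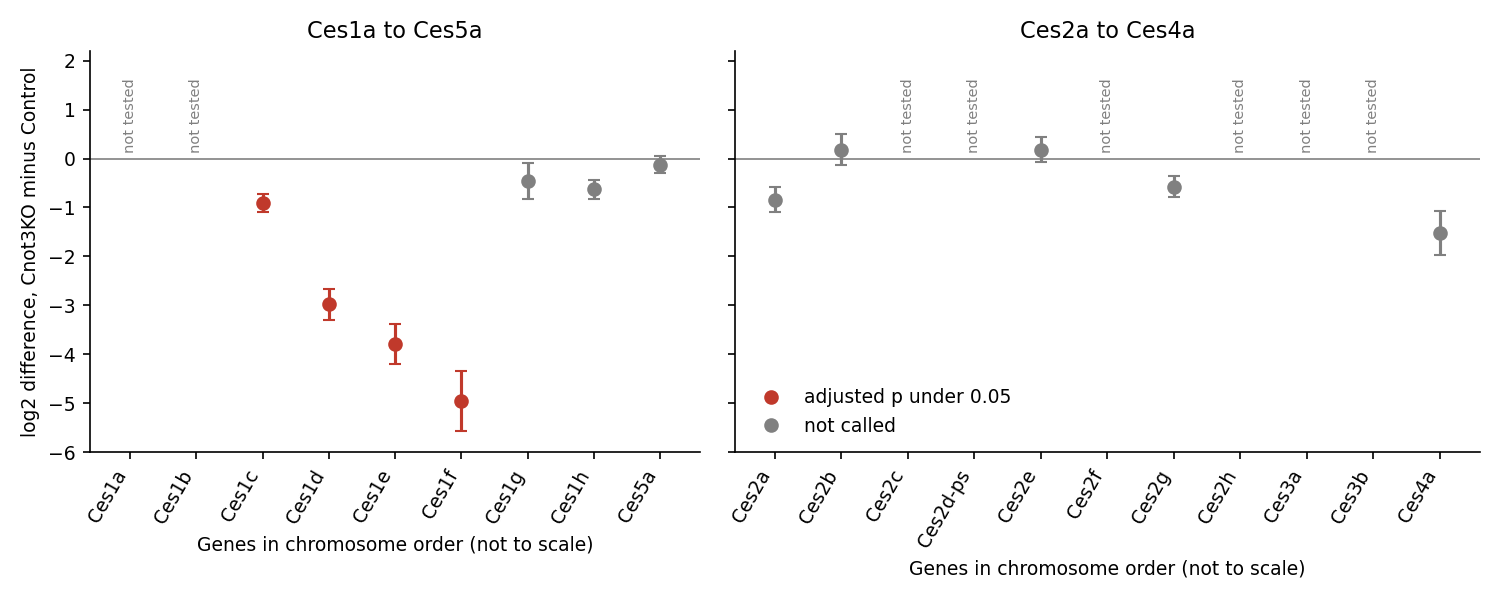
Log2 difference, Cnot3KO minus Control, with its SE (bars) for each carboxylesterase gene in its order along the 2 blocks of chromosome 8, not to scale; red marks an adjusted p under 0.05, and genes with no tested probe set of their own are written as not tested. The estimates deepen along Ces1c, Ces1d, Ces1e and Ces1f, with no test between genes, and the next gene, Ces1g, lies at -0.46.

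Of other liver esterases and lipases, 26 were measured, of which 5 were called lower and 1 higher. Over all genes tested the shares were 4.64% lower and 12.2% higher. The median difference of the list was 0.13. The lower ones with the largest differences were Mgll, which splits monoacylglycerol (-2.85 ± 0.22), the plasma paraoxonase Pon1 (-2.62 ± 0.43), Afmid, an arylformamidase of tryptophan breakdown (-1.84 ± 0.30), and Bche, the plasma butyrylcholinesterase (-1.46 ± 0.19). The paraoxonase Pon3 was higher (1.33 ± 0.19). Pon1 also read lower on Cnot3KO replicate 1 (8.93) than on replicate 2 (10.25).

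Among 17 other phase I drug enzymes, 5 were lower and 3 higher, with a median of -0.19. The carbonyl reductases Cbr3 (3.52 ± 0.46) and Cbr1 (2.30 ± 0.26) were higher, and the hydroxysteroid dehydrogenase Akr1c6 (-1.70 ± 0.24) and the aldehyde dehydrogenase Aldh2 (-1.63 ± 0.25) were lower. Of 12 genes of VLDL assembly and lipid droplets, 1 was lower and 2 were higher, with a median of -0.20. Apob, the structural protein of VLDL, was lower (-1.13 ± 0.21), and Plin2, which coats lipid droplets (1.49 ± 0.28), and Dgat1, which makes triacylglycerol (1.28 ± 0.18), were higher. Of 8 genes for β-glucuronidase and for chaperones and receptors that keep proteins in the endoplasmic reticulum, 1 was higher and 0 lower. It was the retention receptor Kdelr3 (1.92 ± 0.21), and the median was -0.02. Over all genes tested 4.64% were called lower and 12.2% higher. In lists this short, the VLDL and retention counts lay near those shares.

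Transcription factors known to act on hepatic carboxylesterase genes mostly did not pass the test. Of 14 measured, 1 was lower and 1 higher, where 4.64% and 12.2% of all genes tested were. The median was -0.60. At an unadjusted p under 0.05, limma had 6 lower and 1 higher and the methods' t-test 1 and 1. Rxra, the partner of many nuclear receptors, read 7.66 and 7.58 in Cnot3KO livers, against 8.80 and 8.56 in Control livers (-1.07 ± 0.17, limma adjusted p = 0.0206). Nfe2l2, the factor of the antioxidant response, read 8.71 and 9.02 in Cnot3KO livers, against 7.86 and 7.77 in Control livers (1.05 ± 0.18, limma adjusted p = 0.0244).

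**Figure D4:**
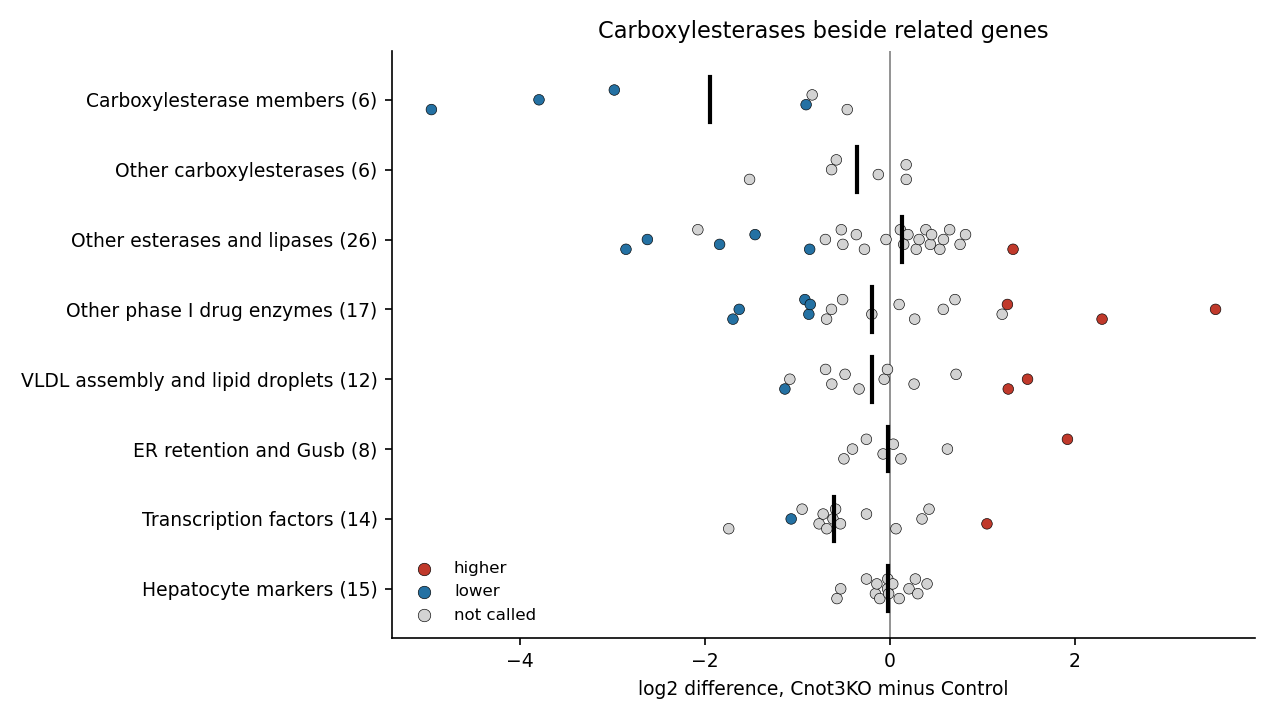
Log2 difference, Cnot3KO minus Control, of each gene (points) in the carboxylesterase members and 7 lists of related genes, with the number measured in brackets and the median as a black bar; red is called higher, blue called lower and grey not called. The carboxylesterase median lies at -1.94 (-0.90 with the _x_at and _s_at kinds dropped) and that of the hepatocyte markers at -0.02.

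Cnot3 itself read 5.15 and 5.30 in Cnot3KO livers, against 5.99 and 6.04 in Control livers (-0.79 ± 0.16, limma adjusted p = 0.0372), and its other probe set did not pass (-0.40, adjusted p = 0.218). Where these probes lie relative to the deleted part is not given in the sources used here. Of 15 hepatocyte markers 0 were called by limma (3 at an unadjusted p under 0.05, and 5 by the methods' t-test), with a median of -0.02, and Alb read 13.74 and 13.79 in Cnot3KO livers, against 13.84 and 13.73 in Control livers, as fits the tissue label. Other cell types moved: 6 of 8 cholangiocyte, 7 of 12 stellate cell and 6 of 14 macrophage markers were higher, 1 macrophage and 3 of 6 erythroid markers were lower, and 0 of 12 endothelial, 0 of 11 lymphoid and 0 of 6 intestinal markers were called by limma. Over all genes tested 4.64% were called lower and 12.2% higher. At an unadjusted p under 0.05, limma had 0 endothelial, 2 lymphoid and 1 intestinal markers and the methods' t-test 0, 1 and 0. The summed cholangiocyte level was 10.2 and 9.70 in Cnot3KO livers, against 6.03 and 5.81 in Control livers, on the log2 scale. Its part in the carboxylesterase values was not tested, and in whole liver fewer cells of a type and less RNA per cell cannot be told apart. Sex is not in the labels, but Xist read 1.99 to 2.33 and the Y-linked Eif2s3y read 7.34 to 7.90 over the 4 arrays, and Kdm5d and Uty were not called. Genes higher in male than in female adult liver were lower as well, 9 of 12 called, with a median of -2.97.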

How the data were processed

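Total liver RNA was hybridised to Affymetrix mouse genome expression arrays, 1 per liver. The authors processed the scans with RMA (version not stated; whether other arrays were normalised with these 4 is not given in the sources used here) and deposited linear intensities for 45037 probe sets, which were log2 transformed here with no added constant. Probe sets above the 20th percentile of their array on at least 1 array were kept (38405, including all 8 of the members). Differences were fitted with limma 3.58.1 in R 4.3.3 (lmFit and eBayes, 2 livers a group), with Benjamini-Hochberg adjustment over all probe sets kept and a threshold of 0.05. The script was tested on simulated data.

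Gene names came from the platform annotation, and all 18 carboxylesterase probe sets naming 1 gene matched RefSeq. Gene order and promoter windows came from RefSeq GRCm38.p6, which listed windows for 7 of the 10 members, and were aligned with Biopython 1.88.

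All probe sets of the members are named. From the lists of esterases, drug enzymes, VLDL genes, retention partners and transcription factors up to 4 called genes with the largest differences are named, together with Cnot3, Alb, every other carboxylesterase named alone and the sex-linked genes. Marker lists are given by counts. The members and the lists were chosen with earlier results of these data known. The number of arrays limits the precision.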

Additional observations from a re-analysis of the deposited data

How the results depend on the processing

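Each of the carboxylesterases called lower kept its direction under all alternatives run: no filter or a stricter one, quantile normalisation again, centring on the median, on ribosomal protein genes or on Rplp0, other variance priors, the replicate block, the methods' t-test and each array left out. That is no test of the falls. Filters, variance priors, the block and the t-test leave the difference itself as it is. Centring used offsets between the groups of only -0.04, 0.05 and 0.07. Both Cnot3KO arrays lay below both Control arrays in every called probe set, so leaving out 1 array cannot turn its sign. The counts did move. Leaving out any 1 array gave fewer member genes and probe sets called lower, the fewest without Control replicate 1. Fewer probe sets were then called lower over the whole array too. The median difference of the member genes lay between -2.21 and -1.74 in these fits. With 1 array in an arm, that array is assumed to vary like the other group. The methods' t-test called 6 member probe sets and 4 genes lower at an unadjusted threshold of 0.05, where it called 3977 of 38405 probe sets lower. After Benjamini-Hochberg adjustment it called 0 member probe sets and 0 genes. Over the whole array it then called only 1 probe set lower and 0 higher. An adjusted p under 0.01 left 2 genes in limma. When probe sets with an _x_at or _s_at ending were dropped, which takes out Ces1f, the median difference was -0.90. Both groups hold a replicate 1 and a replicate 2, but the labels give them nothing in common, and the differences between replicates correlated at 0.232 across probe sets between the groups. With this number as a block 5 probe sets and 3 genes were lower, Ces1c being lost (adjusted p = 0.0590). Signs turned only for members and relatives that were not called. Ces1g lay between -0.95 and 0.031 with 1 array left out, Ces2b between -0.18 and 0.54 (and at -0.025 after quantile normalisation again) and Ces2e between -0.078 and 0.43.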

Other observations

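The genes of the D-box factors were read after their letters had been seen in the Ces1 promoters, and are given as values. Dbp, a clock-controlled gene whose liver level swings over the day, read 7.41 and 5.49 in Cnot3KO livers, against 10.37 and 3.64 in Control livers. The Control arrays were thus 6.73 log2 units apart in Dbp, while in the member probe sets called lower they were 0.01 to 0.37 apart. In the uncalled members Ces1g and Ces2a the Control arrays were 0.42 and 0.58 apart. A limma call favours a small spread within groups, so the spreads of called probe sets are no test of a link to Dbp. Tef read 7.09 and 6.31 in Cnot3KO livers, against 9.40 and 6.31 in Control livers. Hlf read 4.997 and 5.29 in Cnot3KO livers, against 6.73 and 5.91 in Control livers (-1.18 ± 0.31, limma adjusted p = 0.0649), and Nfil3, a repressor that reads the same letters, 5.80 and 7.33 in Cnot3KO livers, against 5.41 and 8.18 in Control livers. None of the 4 was called by limma. The hour at which each liver was taken is not given in the sources used here, and its part in the carboxylesterase values was not tested.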
